A study of Homo sapiens with 4 samples.

Results

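The cytosolic ribosomal proteins are described here in C4-2 cells given a small interfering RNA against EZH2. The rule for membership took every row of the deposited table whose symbol has the form of a human cytosolic ribosomal protein gene, pseudogenes excluded, which gave 80 rows. The rows SH3D19, ATG10, NKIRAS1 and SPHK2 were added because their genes lie on the DNA strand opposite RPS3A, RPS23, RPL15 and RPL18. That makes 84 of the 59385 rows in the table. C4-2 is a human prostate cancer cell line derived from LNCaP that expresses the androgen receptor. The siEZH2 group (2 libraries) and the siCTRL group (2 libraries) were grown alike, and differ in the labels by the interfering RNA, with no time after transfection given. All 4 libraries come from 1 cell line, and the labels do not say whether replicates were separate cultures, so p-values measure the spread between these libraries, which may be technical.

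A ribosome is built from ribosomal RNA and 1 copy of most of these proteins. Proteins named RPL belong to the large subunit, which forms peptide bonds, and those named RPS to the small subunit, which reads the messenger RNA. RPLP0, RPLP1 and RPLP2 form the P-stalk, an arm of the large subunit that recruits elongation factors. Ribosomal protein mRNAs are among the most abundant in dividing cells. Most begin with a run of pyrimidines, the terminal oligopyrimidine tract, through which the kinase mTOR and the RNA-binding protein LARP1 control their translation.

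In GENCODE release 29 (GRCh38), parts of the coding exons of RPS3A and RPS23 lie inside exons of non-coding transcripts of SH3D19 and ATG10 on the other strand. A read from such a stretch is assigned to one row or the other by its strand alone. Both stretches are shown because the highest counts described below stand under those facing rows. They are spliced coding sequences from GENCODE transcripts, written 5′ to 3′ on the strand of the ribosomal protein gene. Capitals mark the bases that also lie in a facing exon, which are 209 of 792 coding bases of RPS3A and 232 of 429 of RPS23. The RPS3A stretch spans chr4:151101133-151104206 (plus strand) and the RPS23 stretch chr5:82276115-82277722 (minus strand), introns left out.
RPS3A: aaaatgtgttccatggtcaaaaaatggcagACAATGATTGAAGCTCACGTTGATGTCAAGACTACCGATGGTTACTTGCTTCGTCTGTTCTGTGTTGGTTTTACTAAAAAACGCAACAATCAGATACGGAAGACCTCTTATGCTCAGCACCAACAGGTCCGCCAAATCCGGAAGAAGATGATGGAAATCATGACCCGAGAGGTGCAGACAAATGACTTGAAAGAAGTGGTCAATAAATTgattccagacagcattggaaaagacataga
RPS23: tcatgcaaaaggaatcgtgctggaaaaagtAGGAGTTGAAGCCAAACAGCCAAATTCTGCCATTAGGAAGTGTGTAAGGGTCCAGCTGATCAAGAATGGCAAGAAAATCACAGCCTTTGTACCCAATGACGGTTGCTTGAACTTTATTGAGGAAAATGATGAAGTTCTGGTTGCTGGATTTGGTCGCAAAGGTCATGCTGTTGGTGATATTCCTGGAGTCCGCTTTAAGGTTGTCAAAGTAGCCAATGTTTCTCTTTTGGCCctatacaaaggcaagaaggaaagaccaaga

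The members share a feature at their start sites that the rule did not use. A run of at least 5 pyrimidines (C or T) that held the annotated transcription start, or touched it on either side, was found at 1 or more starts of 50 of the 63 members in the RefSeq promoter table (GRCh38.p14). That is 79.4% of them, against 26.6% of the 27305 genes in that table and 23.2% of 69 mitochondrial ribosomal protein genes. The windows below run from 15 bases before the start through the 15 bases that begin with it, on the gene's own strand, with the run in capitals. They show 3 faced genes, the members with the lowest p in the comparison below (RPS9 and RPL7A), and the 4 facing genes. For a gene with several starts the one with the longest run is shown. Among the starts of RPL15 in the table the longest run was 2 bases.
RPS3A, chr4:151099613-151099642, plus strand: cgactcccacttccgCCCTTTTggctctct
RPS23, chr5:82278340-82278369, minus strand: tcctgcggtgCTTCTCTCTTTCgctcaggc
RPL18, chr19:48619164-48619193, minus strand: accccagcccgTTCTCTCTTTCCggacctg
RPS9, chr19:54200843-54200872, plus strand: gtggcgcttccgcgCCTCTTTCTCagtgac
RPL7A, chr9:133348203-133348232, plus strand: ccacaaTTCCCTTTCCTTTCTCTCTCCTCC
SH3D19, chr4:151227895-151227924, minus strand: tttacatgcatcgtgaCTCTgtttctccct
ATG10, chr5:81972008-81972037, plus strand: acggcgcgggaaggCgcagtgcgcacgctc
NKIRAS1, chr3:23916976-23917005, minus strand: ggcgccgcggccgCTattgtcccgccccct
SPHK2, chr19:48619491-48619520, plus strand: cgccgacggCCTCTCagtggctcccggagg
The runs were 7 bases at RPS3A, 12 at RPS23 and RPL18, 10 at RPS9 and 25 at RPL7A, where the run goes on past the window. They were 4 bases at SH3D19, 1 at ATG10 and 2 at NKIRAS1, and 6 at SPHK2, which is past the minimum of 5.

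Some facts of the whole table bear on every value. Library totals were 6362561 and 6162123 counts for siEZH2 and 6867542 and 6818482 for siCTRL. Counts under EZH2 itself were 60 and 131 in the libraries labelled siEZH2 and 39 and 59 in those labelled siCTRL, so the EZH2 row did not show the knockdown, and directions below are those of the labels. The kit keeps strand, but the strand setting of the counting is not given in the sources used. Whether the counts of a row come from the named gene or from the strand opposite it therefore cannot be told apart here. This holds for EZH2, for the ribosomal protein rows and for the rows that face them, and each value below is that of a row as deposited. Rows of 405 olfactory receptor genes, most of them silent outside the nose, served as a background level. Divided by row length they gave 4.64 and 6.27 counts per kb for siEZH2 and 1.30 and 3.14 for siCTRL. The 14 luminal prostate markers summed to 23546 and 12860 counts in siEZH2 and to 23144 and 22907 in siCTRL. Most of these stood under KRT8. Of the 14 rows 14 had a negative log2 fold change, with a median of -0.83 and a median count of 203. Among all tested rows, 95.5% of those with 200 to 1000 counts were negative, with a median of -0.75. The share was 76.1% for rows with 100 to 200 counts. The 14 markers of immune, endothelial, stromal, basal and neuroendocrine cells summed to 793 and 952 in siEZH2 and to 572 and 739 in siCTRL, with CHGA at 0 in 1 library of each group. Of their 11 tested rows 10 were positive, with a median of 0.62 and a median count of 34.8. Among all tested rows with 20 to 50 counts 30.7% were negative, and the median was 0.49. What part the luminal and other markers have in the results below was not tested.

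Counts under the ribosomal protein rows themselves were modest. The median over the 80 rows was 101.0 and 132.5 counts in the siEZH2 libraries and 147.5 and 135.5 in the siCTRL libraries. Per length this was 36.0 and 41.9 counts per kb in siEZH2, against 43.9 and 45.1 in siCTRL. Averaged over libraries, 9 rows had under 20 counts, 22 had 20 to 100, 47 had 100 to 1000, and RPL10 and RPS28 had more than 1000. Between 8 and 9 rows lay at or under the olfactory receptor level in each siEZH2 library, and 3 in each siCTRL library.

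The highest counts per kb among the members stood under RPS28, a small-subunit protein of the mRNA exit region. RPS28 held 3390 and 3234 counts in siEZH2 and 3033 and 3801 in siCTRL, a mean of 1588 counts per kb. RPL10, a large-subunit protein that is added late in assembly, followed with 3894 and 3072 counts in siEZH2 and 4300 and 4320 in siCTRL, a mean of 846.7 per kb. The groups overlap in the raw counts of RPS28, and for RPL10 both siEZH2 libraries were lower. RPL8, RPS2, RPS15, RPS26 and RPL35 were among those that came next, with 187.9 to 412.9 counts per kb.

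At the other end, 5 rows were left out by the filter on low counts. RPS10 had 0 and 2 counts in siEZH2 and 0 and 5 in siCTRL, and RPL17 had 6 and 9 in siEZH2 and 5 and 8 in siCTRL. RPS10 shares 929 exonic bases on its own strand with the read-through row RPS10-NUDT3, and RPL17 shares 611 with RPL17-C18orf32. Those read-through rows held a mean of 0 counts. Among the rows left out were also the paralogs with tissue-restricted expression RPL10L (2 and 10 counts in siEZH2, 2 and 0 in siCTRL) and RPL39L (0 and 0 in siEZH2, 2 and 11 in siCTRL). RPL3L, a striated-muscle paralog of RPL3, had 78 and 63 counts in siEZH2 and 91 and 73 in siCTRL. RPS27L, a p53-responsive paralog of RPS27, had 71 and 32 in siEZH2 and 35 and 44 in siCTRL, so its groups overlap.

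The counts that lay opposite ribosomal protein genes were much larger in a few places. SH3D19 encodes a protein with SH3 domains, and its gene spans chromosome 4, 151102751 to 151325632, on the minus strand. Its row held 38574 and 47207 counts in siEZH2 and 46790 and 49255 in siCTRL. RPS3A (151099573 to 151104652, plus strand), which it faces over 262 exonic bases, held 25 and 61 counts in siEZH2 and 74 and 78 in siCTRL. ATG10 encodes a conjugating enzyme of autophagy that joins ATG12 to ATG5. It held 31403 and 32156 counts in siEZH2 and 38207 and 32545 in siCTRL. RPS23, a protein near the decoding centre, faces it over 374 bases (chromosome 5, 82276145 to 82276518) and held 44 and 27 counts in siEZH2 and 46 and 80 in siCTRL. In both pairs the overlap covers coding exons of the ribosomal protein gene and no bases shared between the main isoforms.

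In the other pairs the genes start beside each other and share bases at their 5′ ends, none of them coding for the ribosomal protein. NKIRAS1, a Ras-like inhibitor of NF-kappaB signalling, held 5290 and 6841 counts in siEZH2 and 6454 and 5507 in siCTRL. RPL15, which shares 453 bases with it, held 170 and 227 in siEZH2 and 203 and 193 in siCTRL. SPHK2, a sphingosine kinase, held 643 and 323 counts in siEZH2 and 415 and 437 in siCTRL. RPL18, which shares 246 bases with it, held 210 and 226 in siEZH2 and 182 and 232 in siCTRL. The excess of the facing row over the own row was thus 764 times for SH3D19, 682 times for ATG10, 30.4 times for NKIRAS1 and 2.14 times for SPHK2, as ratios of mean counts. On the counts per kb scale the facing rows averaged 5856 for SH3D19, 6167 for ATG10, 1179 for NKIRAS1 and 75.6 for SPHK2.

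**Figure D1:**
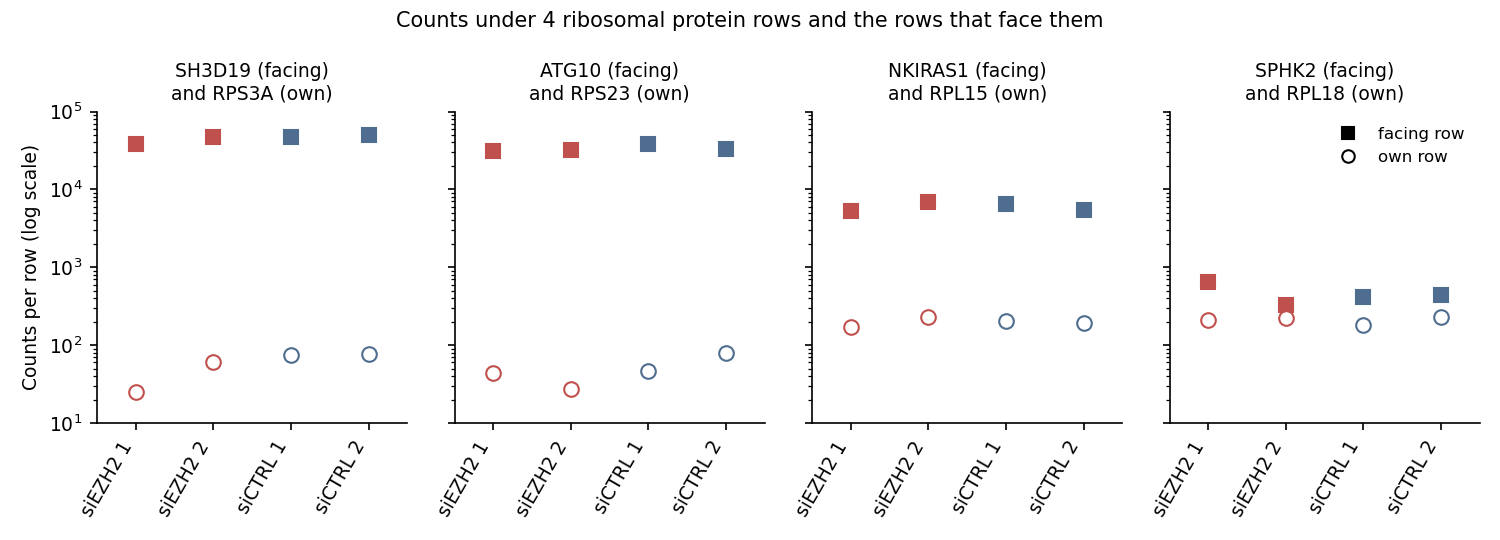
Counts per row (vertical log axis) in each library, with filled squares for the facing row and open circles for the ribosomal protein row, siEZH2 in red and siCTRL in blue. The SH3D19 row lies between 38574 and 49255 counts and the RPS3A row between 25 and 78, while SPHK2 and RPL18 lie within a few fold of each other.

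These pairs are the extremes of a wider set. Of the 80 ribosomal protein rows, 16 share at least 100 exonic bases with a row on the opposite strand, and in 8 of those 16 pairs the facing row had more counts. Coding bases of the ribosomal protein were shared in 3 of the 16 pairs, those of SH3D19, ATG10 and DNASE1L1. TRAPPC4, a subunit of a vesicle tethering complex, held 1717 and 1510 counts in siEZH2 and 2598 and 2521 in siCTRL. RPS25, which it faces over 260 bases, held 95 and 133 in siEZH2 and 146 and 101 in siCTRL. The order was turned round for RPL10, whose facing row DNASE1L1 shares 1649 bases and held 342 and 292 counts in siEZH2 and 414 and 327 in siCTRL. KANK3, which shares 365 bases with RPS28, held 295 and 361 in siEZH2 and 359 and 300 in siCTRL. The annotation the authors counted on is not given in the sources used here, and 12 of the 80 row lengths equal those of release 29, so the overlaps in their annotation may differ.

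No ribosomal protein row was called higher or lower between siEZH2 and siCTRL. With edgeR's quasi-likelihood test on the whole table, 0 of 75 tested rows passed a Benjamini-Hochberg adjusted p of 0.05 in either direction, against 0.0% of all 24431 tested rows, and the lowest adjusted p among them was 0.189. At an unadjusted p under 0.05 there were 21 rows with a negative and 0 with a positive log2 fold change, against 7.91% of all tested rows on the negative and 8.53% on the positive side. The log2 fold change was below 0 in 70 of 75 rows (43.3% of all tested rows), and the median was -0.72, against 0.22 over all tested rows. In 56 of the 75 rows both siEZH2 libraries had a lower CPM (counts scaled to library size) than both siCTRL libraries, against 22.9% of all tested rows. In 0 of the 75 both were higher, against 31.4%. Those shares cover tested rows of every depth, with a median count of 32.25, against 137 for the tested members. For this lack of overlap no share was taken among rows of like counts. Other tools gave calls: DESeq2 called 10 lower of the 54 rows it adjusted (17.1% of all rows it adjusted were called lower), and limma-voom called 2, RPS9 and RPL7A (1.37% of all). Both tools called 0 members higher, against 0.2% of all rows with DESeq2 and 0.045% with limma-voom.

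Rows with many counts had negative values throughout the table, and the members have to be read against rows of like counts. From 200 to 1000 mean counts, 25 of 25 ribosomal protein rows were negative with a median of -0.77, and 95.5% of all tested rows were negative with a median of -0.75. From 100 to 200, the members' median was -0.67 (22 of 22 negative) and that of all rows -0.52 (76.1% negative). At an unadjusted p under 0.05, 10 of the 25 and 5 of the 22 members were lower, against 37.2% and 22.0% of all rows in the same classes. The members stood further from other rows where counts were fewer. From 50 to 100 counts, 14 of 15 members were negative with a median of -0.80, against 44.0% of 3912 rows with a median of 0.15. From 20 to 50 counts, 5 of 7 were negative with a median of -0.21, against 30.7% of all rows and a median of 0.49. Of these, 5 of the 15 and 0 of the 7 were lower at that unadjusted p, against 7.67% and 2.67% of all rows. Under 20 counts, 2 of 4 members were negative with a median of 0.03, against 29.4% of all rows and a median of 0.67. There 1 of the 4 was lower at that p, against 0.992% of all rows. No test of the list was made, because the members were chosen with results known.

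**Figure D2:**
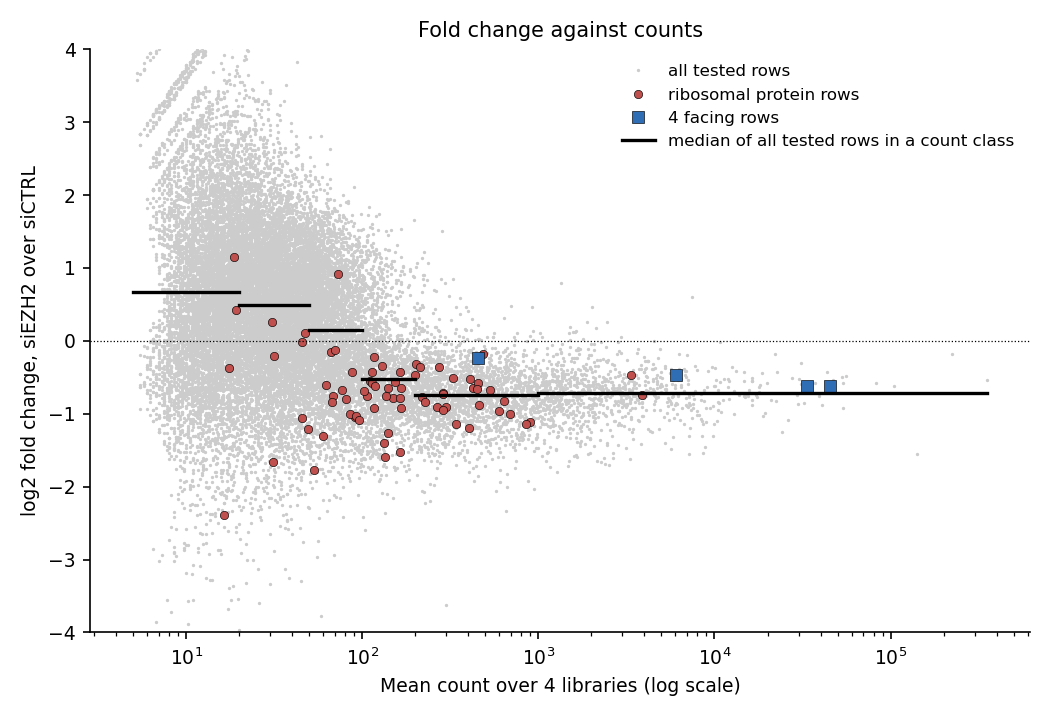
Log2 fold change of siEZH2 over siCTRL (vertical axis) against the mean count over the 4 libraries (horizontal log axis) for all tested rows in grey, ribosomal protein rows in red and the 4 facing rows in blue, with black bars for the median of all tested rows in each count class. Above 200 counts the members lie around the bar of all rows, and from 50 to 100 counts 14 of 15 lie below 0 while the bar is at 0.15. The vertical axis ends at 4, which leaves 331 rows out of view.

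How the libraries are scaled decided whether the family as a whole stood below 0. The counts of all 80 rows, those below the filter included, summed to 19374 and 20978 in siEZH2 and to 23780 and 25140 in siCTRL. After TMM scaling on all tested rows (factors of 1.12 and 1.34 for siEZH2 and of 0.704 and 0.946 for siCTRL) the sums were 2768 and 2594 CPM in siEZH2 and 4951 and 3945 CPM in siCTRL. With no TMM factor they were 3098 and 3484 CPM in siEZH2 and 3484 and 3730 CPM in siCTRL. With factors taken from the 3030 rows that had at least 200 counts in 2 libraries they were 3719 and 4191 CPM in siEZH2 and 3756 and 4228 CPM in siCTRL. Under that last scaling the median over the 75 rows was 0.00, with 37 rows negative and 38 positive, while the median of all tested rows stood at 0.88. The groups are apart under the first scaling and interleaved under the last. Without siCTRL replicate 1 the median under the first scaling was -0.50, and 65 of 75 rows were negative.

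**Figure D3:**
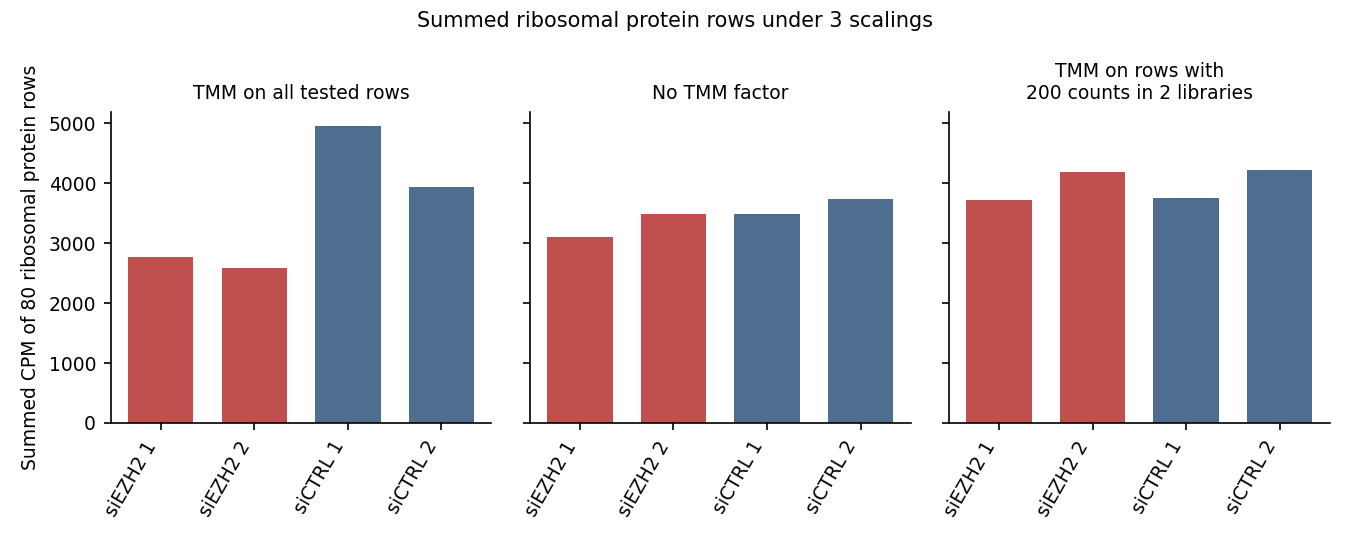
Summed CPM of the 80 ribosomal protein rows (vertical axis from 0) in each library, siEZH2 in red and siCTRL in blue, under 3 scalings. With TMM on all tested rows the siEZH2 bars reach 2768 and 2594 and the siCTRL bars 4951 and 3945, and with TMM on well-covered rows both groups span about the same heights.

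Small-subunit rows were negative in 27 of 29 tested cases, with a median log2 fold change of -0.82, and 11 had a negative value at an unadjusted p under 0.05 (7.91% of all tested rows, and 22.0% of those with 100 to 200 counts, where the median count of these rows, 132, lies). The member with the lowest p was RPS9, a small-subunit protein that binds ribosomal RNA early in assembly (chromosome 19, 54200742 to 54249003, plus strand). RPS9 held 82 and 86 counts in siEZH2 and 183 and 189 in siCTRL. In CPM this was 11.2 ± 0.764 in siEZH2 and 33.9 ± 5.97 in siCTRL (SD, n = 2 each). Both siEZH2 libraries were lower and the groups do not overlap. On the log2 scale siEZH2 over siCTRL was -1.60, standard error (SE) 0.43, at an edgeR adjusted p of 0.189. It was -0.88 under the scaling on well-covered rows. The row of its pseudogene RPS9P1 held 219 and 65 counts in siEZH2 and 193 and 158 in siCTRL. That is a mean of 158.75 counts, against 135 for RPS9. In CPM the groups overlap for RPS9P1, and its log2 fold change was -0.73 (SE 0.52).

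RPS4X, the copy of RPS4 on the X chromosome, held 99 and 80 counts in siEZH2 and 168 and 182 in siCTRL, which gave a log2 fold change of -1.40 (SE 0.44). RPS18, a protein of the small-subunit head, held 97 and 105 in siEZH2 and 169 and 187 in siCTRL, or -1.26 (SE 0.43). RPS21, also of the small subunit, held 21 and 40 in siEZH2 and 64 and 89 in siCTRL, or -1.77 (SE 0.56). These 3 rows were named for being among the 8 most negative members, and their edgeR adjusted p ran from 0.193 to 0.200. In each, both siEZH2 libraries were below both siCTRL libraries in raw counts and in CPM alike. In CPM this held for 56 of the 75 tested members. RPS13 and RPS27 had the other most negative values, at -2.39 and -1.66, on few counts. RPS13 held 2 and 12 in siEZH2 and 28 and 24 in siCTRL, and its value was -1.61 without siEZH2 replicate 1 and -3.92 without siEZH2 replicate 2. RPS27 held 4 and 35 in siEZH2 and 48 and 37 in siCTRL, and its value was -0.79 without siEZH2 replicate 1 and -3.69 without siEZH2 replicate 2. At the positive end, RPS7 had 0.26 and RPS15A 0.11, and in CPM the groups overlap for each.

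Large-subunit rows were negative in 40 of 43 tested cases, with a median of -0.68, and 9 were lower at an unadjusted p under 0.05, against the same 7.91% and 22.0%, with a median count of 152.5. RPL7A, which binds ribosomal RNA and whose gene hosts small nucleolar RNAs, held 115 and 93 counts in siEZH2 and 212 and 232 in siCTRL. In CPM this was 14.0 ± 3.49 in siEZH2 and 40.3 ± 5.47 in siCTRL (SD, n = 2 each), with no overlap. Its log2 fold change was -1.53 (SE 0.43, edgeR adjusted p = 0.189), and -0.83 under the scaling on well-covered rows. RPL8, of the large-subunit core, held 565 and 821 counts in siEZH2 and 1026 and 1154 in siCTRL, or -1.11 (SE 0.40). RPL37 and RPL39 gave the most positive values in the family, at 0.91 and 1.14. RPL37 held 58 and 153 counts in siEZH2 and 42 and 37 in siCTRL. RPL39 held 48 and 8 in siEZH2 and 11 and 8 in siCTRL, and without siEZH2 replicate 1 its value was -0.76. RPL36A, on few counts as well, had 8 and 41 in siEZH2 and 3 and 25 in siCTRL. In CPM the groups overlap for each of these 3.

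The P-stalk rows had 3 of 3 values negative, at mean counts of 218.5 for RPLP0, 116 for RPLP1 and 91.25 for RPLP2. Among all tested rows 95.5% were negative from 200 to 1000 counts, with a median of -0.75. From 100 to 200 counts 76.1% were negative (median -0.52), and from 50 to 100 counts 44.0% (median 0.15). RPLP0, the base of the stalk, held 152 and 240 counts in siEZH2 and 239 and 243 in siCTRL, or 25.7 ± 5.63 CPM in siEZH2 and 43.9 ± 8.22 CPM in siCTRL (SD, n = 2 each). Its log2 fold change was -0.77, that of RPLP2 was -1.05 and that of RPLP1 -0.23, and RPLP1 overlapped between the groups. RPL5 and RPL11, which carry the 5S ribosomal RNA and bind MDM2 when assembly is disturbed, had -0.56 and -0.88. RPS6, the substrate of S6 kinase, had -0.91, with 160 and 294 counts in siEZH2 and 311 and 298 in siCTRL.

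**Figure D4:**
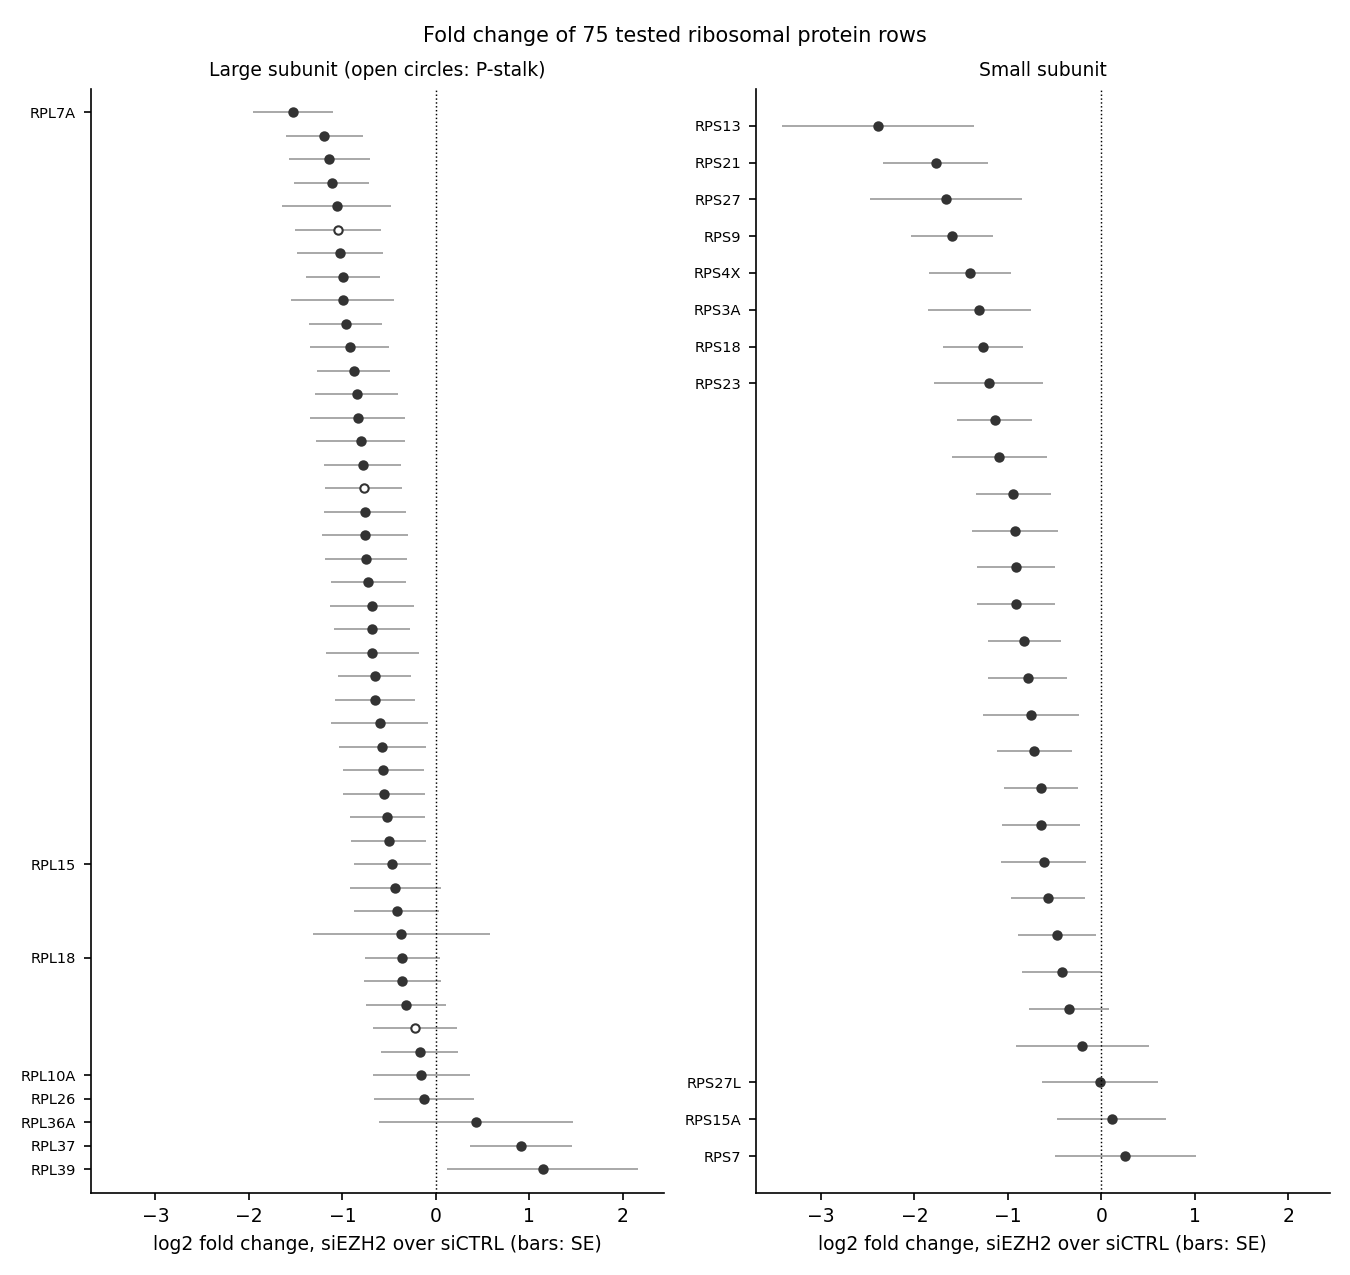
Log2 fold change of siEZH2 over siCTRL (horizontal axis, edgeR, TMM on all tested rows) for each tested ribosomal protein row, large subunit and P-stalk on the left and small subunit on the right, with bars of 1 standard error; names are given for the 8 lowest and 8 highest values and the 4 faced members. The values run from -2.39 for RPS13 to 1.14 for RPL39, and 70 of 75 lie below 0.

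The 4 facing rows were not called either, and all had negative values. SH3D19 stood at 5675 ± 231 CPM in siEZH2 and 8735 ± 1422 CPM in siCTRL (SD, n = 2 each), and its log2 fold change was -0.62 (SE 0.53, edgeR adjusted p = 0.546). ATG10 had -0.63 (SE 0.52), NKIRAS1 -0.46 (SE 0.45) and SPHK2 -0.23 (SE 0.44). In SPHK2 the groups overlap, and without siEZH2 replicate 2 its value was 0.29. Without siCTRL replicate 1 ATG10 had -0.27 and NKIRAS1 -0.11. The median of all rows with at least 1000 counts was -0.72, and that of rows with 200 to 1000 counts, where SPHK2 lies, was -0.75. Under the scaling on well-covered rows SH3D19 had 0.10, ATG10 0.11, NKIRAS1 0.29 and SPHK2 0.44.

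The own rows gave log2 fold changes of -1.30 for RPS3A (SE 0.55), -1.21 for RPS23 (SE 0.58), -0.47 for RPL15 (SE 0.41) and -0.36 for RPL18 (SE 0.40). The ratio of a facing row to its own row is free of library scaling. On the log2 scale, with 0.5 added to both counts, SH3D19 over RPS3A was 10.07 ± 0.69 in siEZH2 and 9.29 ± 0.001 in siCTRL (SD, n = 2 each). ATG10 over RPS23 was 9.83 ± 0.52 in siEZH2 and 9.17 ± 0.72 in siCTRL. NKIRAS1 over RPL15 was 4.93 ± 0.03 in siEZH2 and 4.91 ± 0.11 in siCTRL, and SPHK2 over RPL18 was 1.06 ± 0.78 in siEZH2 and 1.05 ± 0.19 in siCTRL. The differences of siEZH2 minus siCTRL were 0.78, 0.66, 0.02 and 0.01 in the order of the pairs. The first is about as large as the SD between the siEZH2 libraries, although both of these lay above both siCTRL libraries, the second lies within the wider spread of the siCTRL libraries, and the last 2 are far within it. For 1 such value the smallest two-sided p of an exact permutation test in this design is 0.33, so none is reported.

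Among the other pairs with at least 100 shared bases, LIAS over RPL9 and ZWILCH over RPL4 differed most between the groups, and were picked for that. LIAS, the lipoic acid synthase, held 97 and 54 counts in siEZH2 and 20 and 24 in siCTRL, while RPL9 held 65 and 52 in siEZH2 and 58 and 75 in siCTRL. The log2 ratio was 1.88 higher in siEZH2. The LIAS row, at a mean of 48.75 counts, had a log2 fold change of 1.37 (edgeR adjusted p = 0.290). All tested rows with 20 to 50 counts had a median of 0.49. RNF207 and TRAPPC4, facing RPL22 and RPS25, had log2 fold changes of -1.24 and -1.12 (edgeR adjusted p = 0.203 and 0.229), below those of the rows they face, at -0.80 and -0.62. Over the 16 facing rows, 13 were negative with a median of -0.59, and over the 16 faced rows 16 were negative with a median of -0.78. The facing rows had a median count of 168. In that count class, 100 to 200, a value below 0 was found for 76.1% of the table (tested rows, median -0.52). The faced rows had a median count of 92.0, and the class of 50 to 100 gave 44.0% and 0.15. Mean counts ran from 39.25 to 45460 in the facing set and from 49.25 to 3896 in the faced set, so no single class covers either.

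Of the rest of the translation machinery 0 rows in any list were called by edgeR, and no difference between lists was tested. Their counts are to be read against 43.3% negative rows in the whole table and against rows of like counts. The outside-pattern, elongation and initiation lists below had median counts of 47.8, 126 and 86.8. In the count classes that hold these medians, 30.7%, 76.1% and 44.0% of all rows were negative. The medians of those classes were 0.49, -0.52 and 0.15. Ribosomal proteins whose symbols fall outside the pattern had 8 of 8 negative, a median of -0.90 and 2 lower at an unadjusted p under 0.05 (7.91% of all tested rows), with RACK1, a scaffold on the small subunit, at -0.86 and RPSA at -1.64. Elongation and release factors had 9 of 11 negative and a median of -0.53, with EEF2, which moves the ribosome along the mRNA, at 124.3 ± 7.70 CPM in siEZH2 and 220.1 ± 43.2 CPM in siCTRL (SD, n = 2 each). Initiation factors had 29 of 35 negative and a median of -0.76, with PABPC1, the poly(A)-binding protein, at -0.41. Other mRNAs that begin with an oligopyrimidine tract had 17 of 20 negative, a median of -0.81 and 8 lower at an unadjusted p under 0.05. Their median count was 175, and of all rows with 100 to 200 counts 76.1% were negative and 22.0% lower at that p. Under the scaling on well-covered rows these 4 medians were -0.19, 0.16, -0.06 and -0.07.

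The lists for the making and control of ribosomes had median counts between 40.1 and 84.8. Over all rows the median log2 fold change was 0.49 from 20 to 50 counts and 0.15 from 50 to 100 counts. Ribosome assembly factors had 31 of 39 negative and a median of -0.60, with TSR1, a late assembly factor of the small subunit, at -0.90. Of 12 RNA polymerase I rows 8 were negative, at a median of -0.13, with POLR1C at -0.54. Regulators of translation around mTOR, listed together with the transcription factors MYC, MAX and MXI1, had 11 of 17 negative and a median of -0.33. LARP1 had -0.90, MTOR 0.04, MYC -0.66 and MAX, the partner of MYC and the member with most counts, -0.79. Host genes of small nucleolar RNAs had 7 of 14 negative and a median of -0.09, with SNHG7 at -0.25. Mitochondrial ribosomal proteins, a separate family that translates the mitochondrial genome, had 46 of 66 negative and a median of -0.51, with MRPL34 at -0.47. Their median count was 37.6, against 137 for the tested cytosolic members, so the 2 families were measured at different depths.

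Near-identical copies limit what a ribosomal protein row can show. The table has 1213 rows named as pseudogenes of members, for 76 of the 80. They summed to 4191 and 4808 counts in siEZH2 and to 2182 and 3253 in siCTRL, or 598.8 and 594.6 CPM in siEZH2 and 454.3 and 510.5 CPM in siCTRL. The pseudogene sum was thus higher in both siEZH2 libraries on this scaling, as the olfactory receptor level was. For 14 members, RPS9 among them, the mean counts of their pseudogene rows together exceeded those of the gene's own row. For RPS18 the pseudogene rows came close, at 134.5 against 139.5. How reads were shared between copies was not tested.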

How the data were processed

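The authors deposited whole-number counts per gene, with row lengths, in 1 table that was neither normalised nor pooled. Libraries came from a strand-preserving total RNA kit, per the labels' protocols. GRCh38, STAR 2.7.10b, featureCounts 2.0.3, edgeR and limma appear in the submitters' processing notes without role or order. Neither the annotation nor the strand setting is given there. Columns were matched to libraries by title.

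The 80 ribosomal protein rows were placed on GENCODE 29 by symbol, and exons of all isoforms were compared between strands, with a minimum of 100 shared bases. The test was edgeR's (4.0.16, R 4.3.3: filterByExpr, TMM, glmQLFit, glmQLFTest, no covariate), with Benjamini-Hochberg adjustment over the 24431 rows kept. Each standard error was derived from the fold change and the F statistic. The biological coefficient of variation was 46.5%. The procedure was tested on simulated data with 200 changed rows. It recovered 0.5% of them at a 2-fold change, 33.5% at 4-fold and 71.5% at 8-fold, with 0, 2 and 12 false calls. Alternatives were RLE and upper-quartile factors, TMM on well-covered rows, DESeq2 1.42.0, limma-voom (limma 3.58.1), other filters, a replicate block and each library left out.

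The members and gene lists were chosen with earlier results of these data known. Named rows were the facing pairs, the 8 most negative, 8 most positive and 8 highest per kb among the members, paralogs, facing rows with at least 200 counts, and the row with most counts in each list. RPL5, RPL11, RPLP1, RPLP2, RPS6, RPS10, RPL17, RPSA, LARP1, MTOR, MYC, LIAS and ZWILCH were added after their values were seen. Some rows that the rule names are not reported here. Figures were drawn with matplotlib 3.10.9.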

Additional observations from a re-analysis of the deposited data

How the results depend on the processing

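With 2 libraries a group and the spread seen here, single rows were weakly resolved, and whether the family stood below 0 depended on the scaling. Ribosomal protein rows called lower numbered 10 with DESeq2, 2 with limma-voom and 10 with the replicate block, and 0 with each other alternative. The labels do not say whether replicate numbers pair the libraries. Deviations from the group mean correlated at 0.05 between the libraries numbered 1. With 2 libraries a group this value cannot show whether the numbers pair them. Over all rows, those called lower and higher were 12 and 1 with RLE factors, 858 and 10 with DESeq2, 334 and 11 with limma-voom, 68 and 12 without the filter, 1079 and 248 with the replicate block, and 0 to 143 and 0 to 78 with a library left out. With TMM on well-covered rows the median log2 fold change was 0.0001 for the family, 0.066 for the large subunit, -0.10 for the small subunit and -0.028 for the P-stalk. With at least 50 counts required in 2 libraries these were -0.33, -0.28, -0.41 and -0.35. With a library left out they ran from -0.93 to -0.50, from -0.89 to -0.41, from -1.02 to -0.65 and from -0.97 to -0.50. The log2 difference of summed CPM was -0.13 with no TMM factor and -0.014 with TMM on well-covered rows.

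TMM on well-covered rows turned these log2 fold changes positive: SH3D19 0.10, ATG10 0.11, RPL15 0.27, NKIRAS1 0.29, RPL18 0.33, SPHK2 0.44, RPL10A 0.53, RPL26 0.66, RPS27L 0.63, RPS28 0.21, RPS15 0.12, RPS26 0.046, RPL35 0.0001, RPL3L 0.048, DNASE1L1 0.042, RPS25 0.16, KANK3 0.26, PABPC1 0.30, POLR1C 0.16, SNHG7 0.49, CD68 0.11 and MRPL34 0.25. The stricter filter did so for RPL18 (0.033), SPHK2 (0.15), RPL10A (0.23), RPL26 (0.32) and SNHG7 (0.17). RPS15A became -0.0038 with RLE factors and -0.0036 with DESeq2. With the replicate block SH3D19 (-0.61) and ATG10 (-0.59) passed the edgeR threshold. With a library left out, values ran from -0.90 to 0.29 for SPHK2, from -0.49 to 0.20 for RPL10A, from -0.71 to 0.38 for RPL26, from -0.78 to 0.56 for RPS27L, from -0.058 to 0.34 for RPS15A, from -0.68 to 0.90 for RPS7, from -0.99 to 2.29 for RPL36A and from -0.76 to 2.00 for RPL39. The cause was not tested.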
